A study of Mus musculus with 6 samples.

Results

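The 10 genes of polyamine synthesis and breakdown were followed in Ba/F3, a pro-B line of the mouse that needs interleukin-3 to grow. All cells carried an oncogenic JAK2 fusion, and the groups were with and without the doxycycline that switches it on. The members were chosen by name: Odc1, Amd1, Srm and Sms for synthesis, Oaz1, Oaz2 and Azin1 for control by antizyme, and Sat1, Smox and Paox for breakdown. The array's annotation gave 7 of them probe sets under their symbol alone, 14 in all, out of 18193 genes tested. A further 4 probe sets were listed for a member together with its pseudogene, 3 for Sms and Sms-ps and 1 for Oaz1 and Oaz1-ps. No probe set used here carried the symbol of Amd1 or Paox, which were therefore not analysed here.

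Both groups consisted of Ba/F3 cells carrying SPAG9-JAK2, the kinase JAK2 fused to the scaffold protein SPAG9, in a retroviral Tet-on system that doxycycline switches on. Induced cells had been seeded in triplicate with doxycycline at 500 ng/ml (3 arrays), and uninduced cells without it (3 arrays), with RNA taken after 48 hours. Doxycycline was not tested on cells lacking the fusion, so the drug and the fusion cannot be told apart, and nothing in the labels says whether the line was 1 clone or the cultures separate experiments. P-values therefore measure the spread between these cultures only, and with 3 arrays a group their number limits the precision.

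Polyamines are small positively charged molecules that bind nucleic acids and that growing cells need for translation. Ornithine decarboxylase (Odc1) makes putrescine from ornithine. Spermidine synthase (Srm) and spermine synthase (Sms) then lengthen it with groups from decarboxylated S-adenosylmethionine, which Amd1 supplies. The antizymes Oaz1 and Oaz2 bind ornithine decarboxylase and send it to the proteasome, and the antizyme inhibitor Azin1, a relative of the enzyme without its activity, takes antizyme away from it. On the breakdown side Sat1 acetylates spermidine and spermine, Paox oxidises the acetylated forms, and Smox oxidises spermine directly. Much of this control acts on translation and on protein turnover, which an RNA measurement does not show.

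The promoter windows of Odc1 and Sat1 are shown because these genes start synthesis and breakdown and had the largest differences of the members. Each runs from 250 bases before to 50 after a start listed by RefSeq on GRCm38.p6 (for Odc1 this start lies inside the annotated gene, downstream of its first base), 5′ to 3′ on the gene's strand. Odc1 lies on the plus strand at chr12:17544623-17544922 and Sat1 on the minus strand at chrX:155216400-155216699. Capitals mark GC boxes, GGGCGG or its reverse complement, the only motif of the 3 searched that either window held.
Odc1: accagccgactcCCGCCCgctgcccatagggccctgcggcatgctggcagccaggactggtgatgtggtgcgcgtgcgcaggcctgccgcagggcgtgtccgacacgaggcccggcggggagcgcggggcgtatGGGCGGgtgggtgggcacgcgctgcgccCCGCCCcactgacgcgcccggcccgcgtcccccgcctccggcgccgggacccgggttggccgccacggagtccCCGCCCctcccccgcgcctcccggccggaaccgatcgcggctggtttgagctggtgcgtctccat
Sat1: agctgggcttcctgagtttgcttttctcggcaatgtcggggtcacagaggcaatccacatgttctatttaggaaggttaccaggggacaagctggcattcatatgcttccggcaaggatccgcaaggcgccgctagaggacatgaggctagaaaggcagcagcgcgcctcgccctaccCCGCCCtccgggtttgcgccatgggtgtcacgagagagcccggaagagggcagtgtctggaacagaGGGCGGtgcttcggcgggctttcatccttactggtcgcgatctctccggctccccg
The Odc1 window held 4 GC boxes and the Sat1 window 2, with no overlap between them. Searched on both strands, GGGCGG was in 8 of the 10 windows listed for 8 members and in 35.7% of all 32851 windows. The E-box CACGTG, which MYC and MAX bind, was in 1 member window, at one of 2 starts listed for Sms, and in 7.15% of all windows. The STAT motif TTCNNNGAA was in 0 member windows and in 8.3% of all. These counts describe the letters in the windows and do not bear on binding. Srm and Azin1 had no entry.

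The array signal was used as log2(signal + 16), and differences are induced minus uninduced on that scale, given with their standard error from limma. Median signals ran from 46.3 to 63.8, with the highest on uninduced replicate 1. That array stood apart from its group. Over the genes at or above the median level it differed by a median of 0.35 and 0.33 (log2) from uninduced replicates 2 and 3, by 0.23 from induced replicate 1, and by 0.29 and 0.28 from induced replicates 2 and 3, whereas uninduced replicates 2 and 3 differed by 0.10 from each other. Values of the member genes, and calls that change, are therefore also given without it. In limma 34 of 18193 genes (0.187%) passed an adjusted p of 0.05, 0 with the replicate number as a block (3269 at an unadjusted p under 0.05), and 1453 (7.99%) without uninduced replicate 1. The brightest Jak2 probe set stood at 10.50, 10.78 and 10.66 (log2) on induced arrays, against 10.22, 11.75 and 11.60 on uninduced replicates 1, 2 and 3 (-0.54 ± 0.41, adjusted p of 0.542 in limma), and Spag9 at -0.92 ± 0.33 (adjusted p of 0.234 in limma). Without uninduced replicate 1 both passed as lower in induced cells, Jak2 at -1.03 and Spag9 at -1.27 (adjusted p of 0.0317 and 0.0276 in limma), and whether the probe sets cover the part of each gene kept in the fusion was not stated in what was used here. Of the pro-B and haematopoietic markers 7 of 13 lay above the background level (5.97 on the log2 scale, the 90th percentile of 24 liver and brain genes), namely Csf2rb, Csf2rb2, Il3ra, Ptprc and the B-lineage genes Cd79b, Igll1 and Pax5. Igll1 (4.91 to 7.16 over the 6 arrays) and Pax5 (5.32 to 7.13) lay above that level only on average, with some arrays below it. Kit, Cd79a, Vpreb1, Ebf1, Rag1 and Dntt averaged below the background level.

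The synthesis genes Odc1 and Srm had higher signals, and the breakdown gene Sat1 a lower one, in the induced cells than in uninduced replicates 2 and 3, but uninduced replicate 1 lay close to the induced cultures. Over all 6 arrays none of the 7 members passed the test (adjusted p from 0.189 to 0.938 in limma), where 0.187% of all genes did, and 2 of 7 had an unadjusted p under 0.05, against 17.4% of all genes. Once uninduced replicate 1 was left out, 3 of 7 members passed in limma, where 7.99% of all genes did: Odc1 and Srm rose (3.22% of all genes rose) and Sat1 fell (4.77% of all genes fell). Odc1, Srm and Sat1 also passed in limma without both arrays numbered 1, where 8.12% of all genes did (2.88% higher, 5.24% lower). Uninduced replicate 1 was set aside because of its values, and these p-values do not allow for that choice. Without uninduced replicate 2 or 3 instead, none of them passed. The adjusted p in limma was then 0.425 and 0.452 for Odc1, 0.595 and 0.600 for Srm, and 0.520 and 0.534 for Sat1. The antizyme genes and Smox did not pass in any of the settings tried. The 7 members had a median difference of -0.10, against -0.06 over all genes. In bulk RNA fewer cells of a type and less RNA per cell cannot be told apart.

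**Figure D1:**
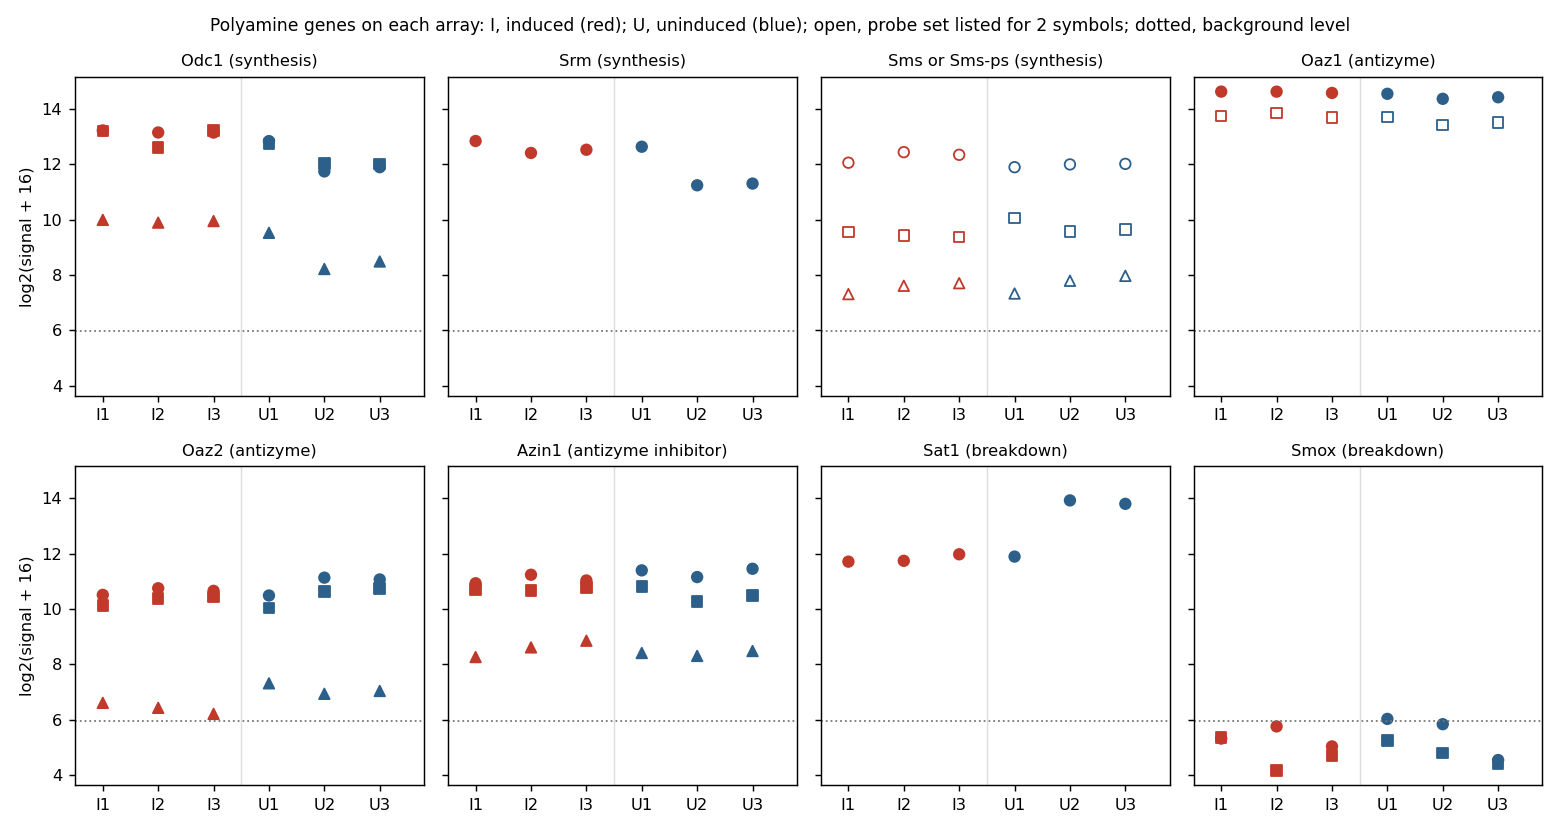
Level of each probe set of the polyamine genes, log2(signal + 16), on induced arrays (I1 to I3, red) and uninduced arrays (U1 to U3, blue). Each symbol shape is 1 probe set, open symbols are probe sets listed for a gene and its pseudogene, and the dotted line is the background level of 5.97. Odc1 and Srm are lowest, and Sat1 highest, on U2 and U3, whereas U1 lies near the induced arrays.

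Odc1 (chr12:17544808-17551502 on GRCm38.p6) encodes the enzyme of the first and usually rate-limiting step. Its brightest probe set, 1438761_a_at, had signals of 9541, 9059.8 and 9044 on the 3 induced arrays, against 7296, 3406 and 3790.5 on uninduced replicates 1, 2 and 3. The groups did not overlap, which held for 24.1% of all genes, and uninduced replicate 1 was closer to the induced arrays than to its 2 companions. The mean was 9215 ± 282 in induced cells and 4831 ± 2144 in uninduced cells (SD, n = 3 each), a difference of 1.01 ± 0.30 with a 95% interval from 0.28 to 1.75 (2.02-fold, adjusted p of 0.189 in limma). With that array left out the difference was 1.35 ± 0.13 (2.56-fold, adjusted p of 0.0166 in limma). Between the arrays numbered 1 it was 0.39, and between those numbered 2 and 3 it was 1.33.

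The other 2 Odc1 probe sets pointed the same way. Probe set 1427364_a_at had signals of 1001, 933 and 971 on induced arrays, against 719, 281 and 343 on uninduced replicates 1, 2 and 3. Its groups did not overlap, and its difference of 1.20 ± 0.35 was the largest of the 3 (adjusted p of 0.196 over all single-symbol probe sets in limma). Probe set 1437711_x_at, whose suffix marks probes that can also bind other sequences, had 9359, 6235 and 9469 on induced arrays, against 6761, 4135 and 4089 on uninduced replicates 1, 2 and 3. Here induced replicate 2 fell below uninduced replicate 1, so the groups overlapped, and the difference was 0.76 ± 0.28 (adjusted p of 0.275 in limma). Without uninduced replicate 1, 1438761_a_at and 1427364_a_at passed (adjusted p of 0.0219 and 0.0205 in limma) and 1437711_x_at did not (0.0765), where 6.18% of all single-symbol probe sets passed.

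Srm (chr4:148591513-148594619), which makes spermidine, followed Odc1. Its 1 probe set had signals of 7316, 5421 and 5876 on induced arrays, against 6337, 2402 and 2509.5 on uninduced replicates 1, 2 and 3. Uninduced replicate 1 lay inside the induced range, whereas the other 2 were well below the lowest induced array. The mean was 6204 ± 989 in induced cells and 3749 ± 2241 in uninduced cells (SD, n = 3 each), and the difference of 0.87 ± 0.40 had a 95% interval from -0.09 to 1.82 (adjusted p of 0.323 in limma). Leaving out uninduced replicate 1 gave 1.32 ± 0.18 (2.50-fold, adjusted p of 0.0278 in limma). The difference was 0.21 between the arrays numbered 1 and 1.20 between those numbered 2 and 3.

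Sms (chrX:157443851-157492287), which makes spermine, was represented only by probe sets that are also listed for the pseudogene Sms-ps, so their values cannot be given to Sms alone. The brightest, 1421052_a_at, had signals of 4241, 5532 and 5174 on induced arrays, against 3789.9, 4062 and 4119 on uninduced replicates 1, 2 and 3. All 3 induced arrays were above all 3 uninduced ones, with a difference of 0.31 ± 0.18 (adjusted p of 0.503 in limma over all probe sets). The second, 1434190_at, ran the other way, with 737, 674 and 649 on induced arrays, against 1045, 747 and 781 on uninduced arrays. Here all 3 induced arrays were below all 3 uninduced ones, with a difference of -0.30 ± 0.20 (adjusted p of 0.555 in limma). For 1428699_at the groups overlapped, and the difference was -0.16 ± 0.24 (adjusted p of 0.815 in limma). The 3 probe sets thus gave no common direction, with or without uninduced replicate 1, and none passed without it (adjusted p from 0.401 to 0.648 in limma).

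Among the antizyme genes, Oaz1 (chr10:80826656-80829290) had a small difference. Its probe set 1436292_a_at had signals of 25249.6, 25226 and 24421 on induced arrays, against 23903, 21081 and 21920.1 on uninduced replicates 1, 2 and 3. The groups did not overlap, but uninduced replicate 1 came within 0.06 (log2) of the induced mean. The difference was 0.16 ± 0.15, with a 95% interval from -0.19 to 0.52 (adjusted p of 0.601 in limma), and 0.22 without uninduced replicate 1 (adjusted p of 0.364 in limma). The probe set listed for both Oaz1 and Oaz1-ps had a difference of 0.21 ± 0.18 (adjusted p of 0.639 in limma).

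Oaz2 (chr9:65676548-65690300), a second antizyme, was measured by 3 probe sets, with negative differences that did not pass. The brightest, 1426763_at, had signals of 1441, 1704 and 1595 on induced arrays, against 1419, 2227 and 2128 on uninduced replicates 1, 2 and 3. Uninduced replicate 1 was the lowest of all 6 arrays and the other 2 uninduced arrays the highest, and the difference was -0.26 ± 0.22 (adjusted p of 0.589 in limma). Leaving it out gave -0.46 ± 0.14 (adjusted p of 0.122 in limma). Probe set 1426764_at had a similar order of arrays and a difference of -0.15 ± 0.24 (adjusted p of 0.800 in limma), or -0.37 without uninduced replicate 1 (adjusted p of 0.261).

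The dimmest Oaz2 probe set, 1442541_at, had another pattern. Its signals were 81.4, 70.0 and 57.9 on induced arrays, against 143.0, 106 and 115 on uninduced replicates 1, 2 and 3. The groups did not overlap, and here uninduced replicate 1 lay farthest from the induced arrays. The difference was -0.68 ± 0.20, with an adjusted p of 0.196 in limma, and it was -0.71 between the arrays numbered 1 and -0.67 between those numbered 2 and 3. It did not pass without uninduced replicate 1 either (adjusted p of 0.133 in limma).

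For Azin1 (chr15:38487430-38519294), the antizyme inhibitor, the sign depended on the probe set. The brightest, 1450714_at, had signals of 1933, 2396 and 2074 on induced arrays, against 2675, 2259.8 and 2787 on uninduced replicates 1, 2 and 3. Induced replicate 2 lay above uninduced replicate 2, so the groups overlapped, and the difference was -0.27 ± 0.17, with a 95% interval from -0.68 to 0.15 (adjusted p of 0.471 in limma). Probe sets 1422702_at and 1430984_at gave 0.19 ± 0.20 and 0.18 ± 0.20 (adjusted p of 0.673 and 0.716 in limma). Without uninduced replicate 1 the 3 stood at -0.24, 0.34 and 0.18, and none passed. With the mean of the 3 probe sets the gene stood at 0.03.

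Sat1 (chrX:155213126-155216449), the acetyltransferase that starts breakdown and export, had the largest difference of the members. Its 1 probe set had signals of 3333, 3403 and 4011 on induced arrays, against 3784, 15503 and 14232 on uninduced replicates 1, 2 and 3. Uninduced replicates 2 and 3 were far above every other array, and uninduced replicate 1 lay between induced replicates 2 and 3. The mean was 3582 ± 373 in induced cells and 11173 ± 6430.2 in uninduced cells (SD, n = 3 each). The difference was -1.40 ± 0.54, with a 95% interval from -2.70 to -0.09 (adjusted p of 0.260 in limma). Without uninduced replicate 1, Sat1 was 4.15-fold lower in induced cells (-2.05 ± 0.15, adjusted p of 0.0133 in limma). It was -0.18 between the arrays numbered 1 and -2.00 between those numbered 2 and 3.

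Smox (chr2:131491858-131525183), the spermine oxidase, was at background. Its probe set 1424268_at had signals of 23.9, 38.0 and 16.8 on induced arrays, against 49.2, 41.1 and 7.28 on uninduced replicates 1, 2 and 3, and 1446509_at ran from 1.94 to 24.9. On the log2 scale 11 of the 12 values lay below the background level of 5.97, and the differences were -0.10 ± 0.43 and -0.07 ± 0.36 (adjusted p of 0.938 and 0.952 in limma). No change of Smox was detectable at this signal.

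**Figure D2:**
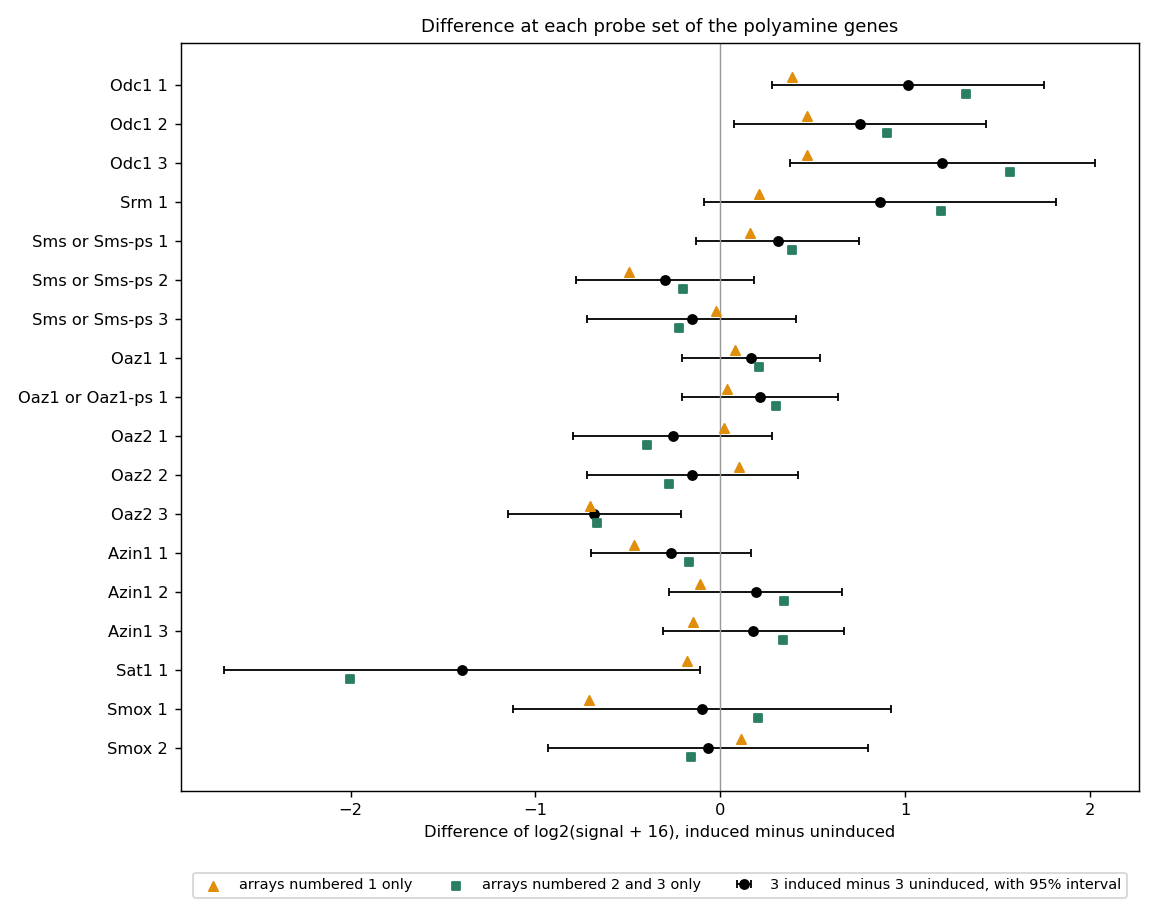
Difference of log2(signal + 16), induced minus uninduced, at each probe set (rows, numbered from bright to dim). Black points are all 6 arrays with the 95% interval of the limma fit, triangles the arrays numbered 1 and squares those numbered 2 and 3. For Odc1, Srm and Sat1 the squares lie far from 0 (1.33, 1.20 and -2.00 for the brightest probe sets) and the triangles nearer to it (0.39, 0.21 and -0.18).

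Set side by side, the 4 single-symbol probe sets of synthesis genes, 3 of Odc1 and 1 of Srm, all had positive differences (0.76 to 1.20). The 3 probe sets that Sms shares with its pseudogene are not among them and had 1 positive and 2 negative differences. The 7 single-symbol probe sets of the antizyme genes had 3 positive and 4 negative differences (-0.68 to 0.19). Those of the breakdown genes, 3 in all, were negative (-1.40 to -0.07). However, 2 of these 3 are the background-level probe sets of Smox, which stood at 0.18 and 0.15 without uninduced replicate 1. Over all 34945 single-symbol probe sets 16253 had a positive difference. The median was 0.94 for synthesis, -0.15 for antizyme control and -0.10 for breakdown, against -0.03 over all 34945 single-symbol probe sets. The breakdown median is the value of the background-level Smox probe set 1424268_at, and the synthesis median rests mostly on Odc1. Of the 14 probe sets, 4 did not overlap between groups, 3 higher and 1 lower, against 22.4% of all such probe sets. In all, 5 of 14 had an unadjusted p under 0.05 (16% of all probe sets), namely the 3 of Odc1, 1 of Oaz2 and that of Sat1. The 3 of Odc1 measure 1 gene on the same arrays and are not independent. Of the 14, 0 passed in limma (0.12% of all). Without uninduced replicate 1, 4 passed (2 of Odc1, and those of Srm and Sat1), against 6.18% of all.

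The place of uninduced replicate 1 was shared with many genes. Of 986 genes at or above the median level whose induced mean differed by at least 1 (log2) from uninduced replicates 2 and 3, uninduced replicate 1 was nearer to the induced mean in 697 (70.7%). On the way from the mean of uninduced replicates 2 and 3 (0) to the induced mean (1) it stood at a median of 0.70 over these genes, and at 0.75 for Odc1, 1.03 for Srm and 0.96 for Sat1. Markers of other blood cells were summed on each array. The summed signal of 9 granulocyte and monocyte genes was 422, 852 and 1333 on induced replicates 1, 2 and 3, against 1158, 3250.3 and 2804 on uninduced replicates 1, 2 and 3. Of the 9, 7 averaged above the background level. Adgre1 was the brightest of them on each uninduced array (9.07, 10.72 and 10.56 on the log2 scale) and weighed most in those sums. Mpo (0.05) and Elane (0.46) had positive differences and the others negative ones. The 2 measured erythroid genes, Klf1 and Hba-a1, summed to 3692 to 4501 on induced arrays, against 1929 to 2059 on uninduced arrays, with Hba-a1 below the background level on every array. The 4 measured T cell genes summed to 111 to 149 on induced arrays, against 123 to 169.8 on uninduced arrays, so those ranges overlapped. The part of these lists in the differences of Odc1, Srm and Sat1 was not tested.

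**Figure D3:**
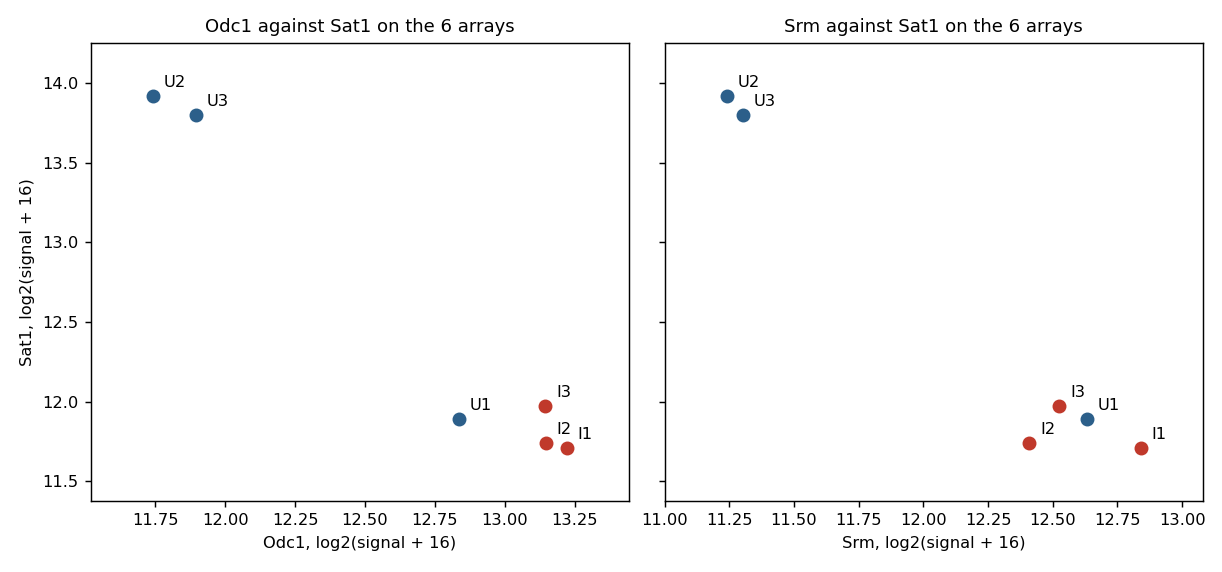
Sat1 against Odc1 (left) and against Srm (right), log2(signal + 16), 1 point an array, induced arrays I1 to I3 in red and uninduced arrays U1 to U3 in blue. U2 and U3 lie at high Sat1 (13.92 and 13.80) and low Odc1 and Srm, and U1 lies with the induced arrays.

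The genes whose levels over the 6 arrays were most like those of Odc1, by Pearson's r among 8806 other genes at or above the median level, leaving out placeholder symbols, were Morf4l2 (0.999), Polr2f, Pno1, Timm8a1 and Mrps25 (0.998 each). For Sat1 they were Arid4a and Tmem189 (0.999 each), and Aff1, Zfp120 and Tcea2 (0.998 each). With 6 arrays, of which 2 lie apart, high values were common: 585 genes had an r above 0.95 with Odc1 and 502 with Sat1. All 6 points of each r come from the same arrays, so the values are given as a description.

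Of 41 other genes of polyamine metabolism and its regulators, 37 had a probe set of their own and 0 passed over all 6 arrays in limma, with 9 at an unadjusted p under 0.05 (4 positive, 5 negative, 24.3% against 17.4% of all genes). Their median difference was -0.24, against -0.06 over all genes, and 12 of the 37 averaged below the background level. After leaving out uninduced replicate 1, 3 of the 37 passed in limma, 2 higher and 1 lower. That share is close to the 7.99% of all genes that passed, so the count does not set this list apart. These were Nqo1, a quinone reductase known to shield ornithine decarboxylase from degradation (1.02 ± 0.19 over 6 arrays and 1.10 without that array, adjusted p of 0.0365 in limma), Apip, a step of the salvage of methionine from the by-product of spermidine and spermine synthesis (0.63 ± 0.22 and 0.85, adjusted p of 0.0309), and Mxi1, a repressor that competes with MYC for MAX (-1.25 ± 0.43 and -1.76, adjusted p of 0.0133). Without both arrays numbered 1 the list gave 2 higher, Arg1 and Apip, and 4 lower, Atp13a3, Mycn, Mxi1 and Mnt, in limma, where 8.12% of all genes passed, and Nqo1 no longer passed (1.08, adjusted p of 0.0638 in limma).

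None of the genes of ornithine supply, transport or hypusine passed in limma, with or without uninduced replicate 1. Without both arrays numbered 1, Arg1, the arginase that makes ornithine, passed as higher (0.91, adjusted p of 0.0492 in limma), although it was below the background level on all 6 arrays, and the polyamine transporter Atp13a3 as lower (-0.96, adjusted p of 0.0419 in limma). Oat, which links ornithine to proline and glutamate, stood at 0.50 ± 0.16 (adjusted p of 0.211 in limma). The amino acid carrier subunit Slc3a2 and Atp13a3 stood at -0.84 ± 0.22 and -0.63 ± 0.24 (adjusted p of 0.159 and 0.259 in limma). Of 9 measured transport genes 8 had a negative difference, against 10174 of all 18193 genes, and 5 of the 9 averaged below the background level. The 4 genes of hypusine, the spermidine-derived modification of the translation factor eIF5A, had a median of 0.19, and none had an unadjusted p under 0.05.

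In the MYC network, which is known to regulate Odc1, Myc did not pass. It stood at 12.40 ± 0.07 in induced cells and 12.48 ± 0.22 in uninduced cells (log2, SD, n = 3 each), a difference of -0.08 ± 0.17 (adjusted p of 0.847 in limma). Mycn had mean signals of 13262 on induced arrays and 26498 on uninduced arrays, a difference of -1.02 ± 0.33 (adjusted p of 0.205 in limma). Max, the shared partner, stood at 0.55 ± 0.16 and the repressor Mnt at -0.63 ± 0.23 (adjusted p of 0.184 and 0.250 in limma). Mycn did not pass without uninduced replicate 1 either (adjusted p of 0.0804 in limma), where Myc stood at -0.21 (adjusted p of 0.400 in limma). Without both arrays numbered 1, Mycn (-0.96), Mnt (-0.93) and Mxi1 (-1.76) passed as lower (adjusted p of 0.0416, 0.0497 and 0.0329 in limma). In that setting 8.12% of all genes passed, 5.24% as lower.

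**Figure D4:**
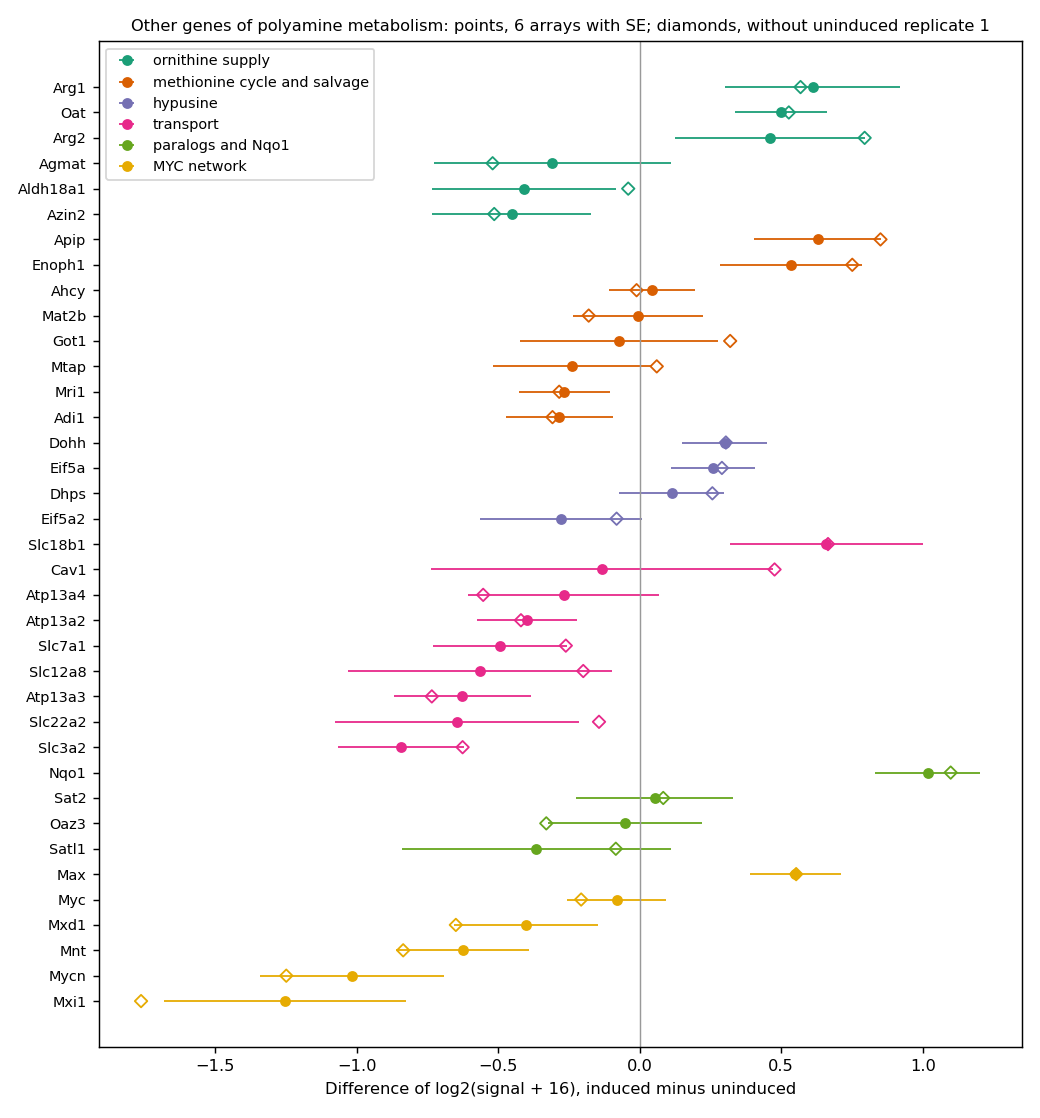
Difference of log2(signal + 16), induced minus uninduced, for 37 other genes of polyamine metabolism and its regulators, by group. Points are all 6 arrays with the standard error, and open diamonds leave out uninduced replicate 1. The groups mix signs, with Nqo1 (1.02) the highest point and Mxi1 (-1.25) the lowest.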

How the data were processed

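RNA of 6 Ba/F3 cultures was labelled with biotin and hybridised to Affymetrix mouse arrays, per the labels' protocols. The deposited values are signal intensities on a linear scale, made with Affymetrix Expression Console 1.4.1 per the submitters' processing notes. How probes were summarised into signals is not stated there. The values show a mean of 500.003 on each array after leaving out 2% at each end.

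The 64 control probe sets were left out, the rest were used as log2(signal + 16) without renormalizing, and each gene was represented by its brightest single-symbol probe set. The platform table gave 34945 probe sets 1 symbol, 932 several and 9160 none, and 34741 of the first matched the GRCm38.p6 gene table. Groups were compared with limma 3.58.1 in R 4.3.3 (lmFit and eBayes, two-sided, Benjamini-Hochberg over all features at 0.05). A gene's brightest probe set is given from the fit over 18193 genes and its other probe sets from that over 34945 probe sets. Probe sets shared with a pseudogene come from a fit over all 45037, added after seeing the data. The smallest p that permuting 3 against 3 arrays allows is 0.1, so no permutation test was run. The procedure was tested on simulated data with independent noise and no outlying array, so that test does not cover the place of uninduced replicate 1. Alternatives were 2 other normalizations, 2 filters on dim features, pseudocounts of 1 and 64, another variance model, other probe set rules, a threshold of 0.01, a replicate block and leaving out arrays.

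Arrays of the same number deviated together from their group means (correlations of 0.36, 0.19 and 0.33 over genes at or above the median level for numbers 1, 2 and 3). Induced replicate 2 with uninduced replicate 3 (0.19), and induced replicate 3 with uninduced replicate 2 (0.30), did so about as much. Number 1 went against numbers 2 and 3 (-0.34 to -0.21). Deviations from a mean of 3 arrays sum to 0, so these negative values follow in part from the positive one of number 1. The correlations therefore add no separate support to the outlying place of uninduced replicate 1. They do not pair 2 with 2 or 3 with 3. The number, from the labels' titles, was left out of the main fit and tried as a block.

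The members, lists and the alternative without both arrays numbered 1 were chosen with earlier results of these data known. The text names all members, the genes of the other lists with an unadjusted p under 0.05, and the 5 genes most like Odc1 and Sat1. Myc and Arg1 were named after their values were seen. Figures were drawn with matplotlib 3.10.9.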

Additional observations from a re-analysis of the deposited data

How the results depend on the processing

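With the replicate number as a block, the count of genes past the threshold was 0 in limma (3269 at an unadjusted p under 0.05), against 34 without the block. The block changed no call of a polyamine gene. The count of 34 (21 higher, 13 lower) was also 742 with a filter at the median, 69 with a filter at the 25th percentile, 252 with a pseudocount of 64, 550 with trended and robust variance, 19 with the most variable probe set, 1477 without both arrays numbered 1, and 0 in limma with a pseudocount of 1 (2816 unadjusted) or a threshold of 0.01 (3171 unadjusted). Leaving out 1 array gave from 0 to 1453. With median centring 24 were higher and 6 lower. The count of polyamine genes was 0 (2 unadjusted) in limma and ranged from 0 to 3 on leaving out 1 array, with 3 without uninduced replicate 1 and 3 without both arrays numbered 1. The count of their probe sets was 0 (5 unadjusted) and ranged from 0 to 4, with 4 without both arrays numbered 1, and it was 0 at all other settings. Odc1 (0.81 to 1.35), Srm (0.62 to 1.32), Sat1 (-2.05 to -1.04), Oaz1 (0.12 to 0.23) and Oaz2 (-0.68 to -0.14) kept their sign in all 18 alternatives. Azin1 reversed to 0.034 with the mean of its probe sets and to 0.18 with the most variable one, since its probe sets differ in sign. Leaving out 1 array moved Smox between -0.56 and 0.18. Smox reversed to 0.07 without induced replicate 3, 0.18 without uninduced replicate 1, 0.08 without uninduced replicate 2 and 0.21 without both arrays numbered 1, and the cause was not tested. It had no value with the filter at the median, which removed it. Among the members, signal over background limits Smox only.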
